A study of Mus musculus with 6 samples.

Results

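The genes described here encode the ligands of transforming growth factor beta (*Tgfb1*, *Tgfb2* and *Tgfb3*), its signaling receptors (*Tgfbr1* and *Tgfbr2*), the SMAD proteins that carry or restrain the signal (*Smad2*, *Smad3*, *Smad4* and *Smad7*) and TGFBI, a secreted matrix protein named for its induction by the ligand. They were chosen by gene symbol, and all 10 were found among the 22248 genes measured. They were measured in unstimulated BMDMs, macrophages derived in culture from bone marrow with macrophage colony-stimulating factor. There were 3 control libraries from *Lyz2cre* mice and 3 CITED2-deficient libraries from *Cited2fl/fl*:*Lyz2cre* mice. All mice were on the C57BL/6 strain and carried a Cre recombinase allele at *Lyz2*, which is active in myeloid cells. The CITED2-deficient mice also carried floxed *Cited2* on both alleles. The labels give an age of 10 weeks for all samples, while the methods of the study give a younger age. The series text speaks of 3 mice, but the labels do not tie each library to a separate mouse, so p-values measure the spread between these libraries, part of which may be technical.

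TGF-β ligands are secreted as latent dimers that are stored on the cell surface or in the matrix until integrins, thrombospondin or proteases release them. The free ligand binds TGFBR2, which recruits and phosphorylates TGFBR1, and TGFBR1 phosphorylates SMAD2 and SMAD3. These join SMAD4, enter the nucleus and recruit coactivators such as CBP and p300, to which CITED2 also binds, while SMAD7 is induced by the pathway and acts back on TGFBR1. In macrophages TGF-β1 is known for restraining inflammatory cytokine production.

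Each value is an FPKM, a count of fragments divided by transcript length and library size, computed by the authors. The depth recovered from the steps between values was 17289286 to 18952077 fragments in control libraries and 22583995 to 26100410 in CITED2-deficient libraries, on average 1.34 times higher. *Cited2* itself, on chromosome 10 from 17723218 to 17725674 (mm10), stood at 71.7, 79.3 and 75.5 FPKM in the control libraries, against 9.27, 7.22 and 7.53 FPKM in those from CITED2-deficient mice. It fell by 3.09 on the log2(FPKM + 1) scale (SE 0.08, adjusted p = 6.57e-09 in limma). Library values are given throughout in the order of replicates 1 to 3. All fold changes below are on this scale, CITED2-deficient minus control, with limma p-values adjusted by the Benjamini-Hochberg method over the 11687 genes that averaged 1 FPKM or more, and a threshold of 0.05. The scale understates the change of genes with low FPKM.

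The cultures had high macrophage markers, with a summed FPKM of 7 genes (*Adgre1*, *Csf1r* and others) of 5593 to 5664 in control and 5278 to 5357 in CITED2-deficient BMDMs. Of these, 1 rose (*Fcgr1*) and 4 fell. Sums were at most 1.09 for T and NK cell, 3.00 for B cell and 1.34 for erythroid markers. Neutrophil markers summed to 727 to 795 in control and 658 to 777 in CITED2-deficient libraries, with 1 of 7 tested genes higher and 5 lower. Platelet markers summed to 320 to 348 in control and 82.8 to 94.3 in CITED2-deficient libraries, most of it *Pf4*, with 2 of 4 tested genes higher and 2 lower. Endothelial markers summed to 5.98 to 6.22 in control and 27.4 to 32.5 in CITED2-deficient libraries, most of it *Kdr*, with 2 of 3 tested genes higher. Of these 3, *Cdh5* (higher) and *Pecam1* (not called) passed the filter only through the CITED2-deficient libraries. Stromal markers such as collagens summed to 51.1, 42.6 and 50.8 in control libraries and to 547, 172 and 173 in CITED2-deficient libraries. All 7 stromal genes tested were higher, *Lum* and *Thy1* being below the filter, but *Postn* and *Pdgfrb* passed it only through the CITED2-deficient libraries, which ties their direction to being tested. No marker of any list was at 0 in all 6 libraries. In bulk RNA, fewer cells of a type and less RNA per cell cannot be told apart.

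Of the 10 genes, 4 rose in CITED2-deficient BMDMs (*Tgfb2*, *Tgfb3*, *Tgfbr1* and *Smad7*), 3 fell (*Tgfb1*, *Tgfbr2* and *Tgfbi*), and *Smad2*, *Smad3* and *Smad4* did not pass the test. The most abundant ligand fell while the scarce ligands rose, and of the receptors *Tgfbr2* fell while *Tgfbr1* rose. Changed genes were common in these libraries. Among all genes tested, 51.3% passed, against 7 of these 10, with 16.7% higher and 34.6% lower, and the groups did not overlap for 59.9%, against 8 of the 10 genes here. *Tgfb2* and *Tgfb3* passed the filter only through the CITED2-deficient libraries, so their presence among the tested genes is tied to their direction. The median change was 0.048 over the 10 genes and -0.10 over all genes tested.

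The scaling between libraries bears on small changes. Of all calls, 32.5% were higher with FPKM as deposited and 52.0% after median-ratio scaling, which moved the median of all genes to -0.0069. With that scaling 8 of the 10 genes passed, against 44.4% of all genes, and with limma-voom on recovered fragments 9 passed, against 46.4%. With no filter 7 of the 10 passed, against 26.2% of all 22248 genes, and with a fold change of at least 1.5 there were 3, against 13.3%. The direction of the 10 genes under median-ratio scaling, limma-voom and quantile normalization was that of the values as deposited.

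**Figure D1:**
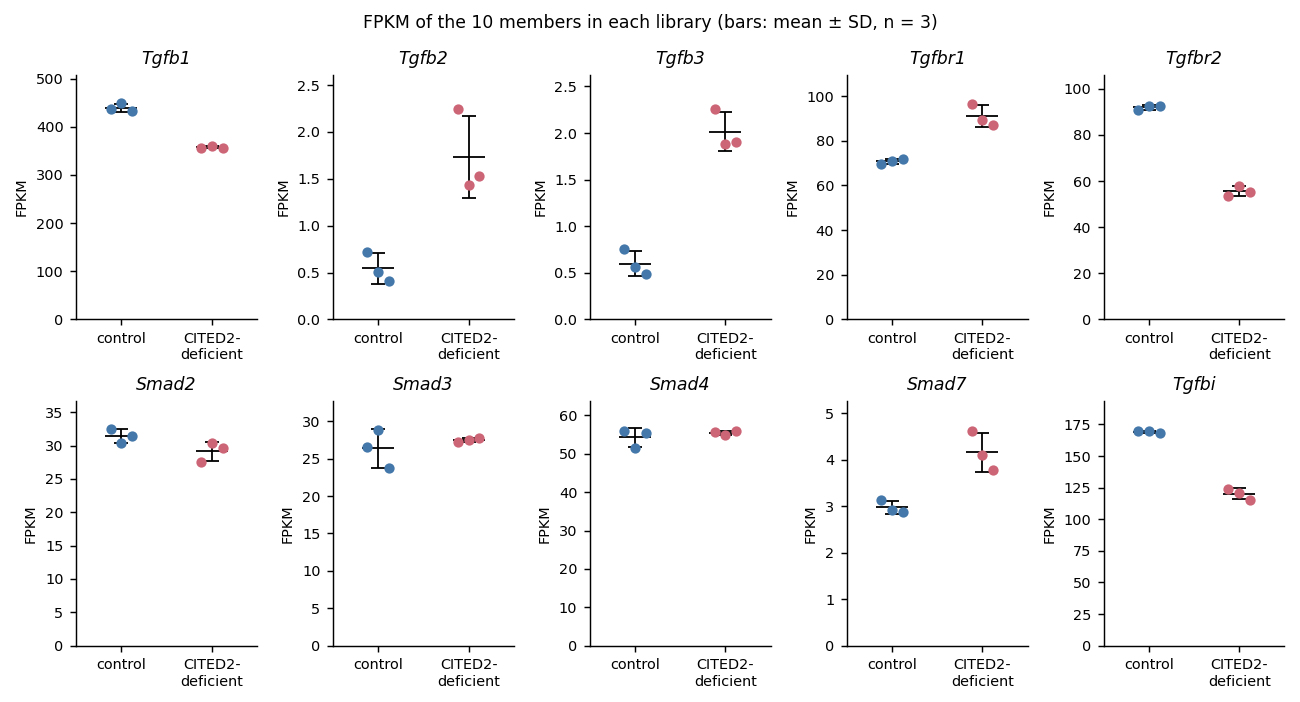
FPKM (y axis, from 0) of each of the 10 genes in each library, with control in blue and CITED2-deficient BMDMs in red; points are libraries and bars the mean ± SD of 3. The groups are apart for *Tgfb1*, *Tgfb2*, *Tgfb3*, *Tgfbr1*, *Tgfbr2*, *Smad7* and *Tgfbi*, barely apart for *Smad2*, and overlap for *Smad3* and *Smad4*.

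*Tgfb1* was by far the most abundant of the ligands and fell in CITED2-deficient BMDMs, while *Tgfb2* and *Tgfb3* had low FPKM in control BMDMs and rose. *Tgfb1* (ENSMUSG00000002603, chromosome 7 from 25687002 to 25705077, mm10) had FPKM of 436, 449 and 433 in control and 356, 360 and 356 in CITED2-deficient libraries. Every CITED2-deficient library was below every control library, and the spread within each group was small beside the gap. The mean was 439 ± 8.50 in control and 357 ± 2.24 in CITED2-deficient BMDMs (SD, n = 3), and the change was -0.30 (SE 0.03, adjusted p = 1.65e-05 in limma) or -0.19 after median-ratio scaling. In control BMDMs 98.1% of the genes tested had a lower mean FPKM than *Tgfb1*, and in CITED2-deficient BMDMs 97.8%. Platelets are rich in TGF-β1. The platelet marker sum, most of it *Pf4*, was lower in the same libraries (82.8 to 94.3 against 320 to 348). Of its 4 tested genes 2 fell, *Pf4* and *Treml1*, while *Ppbp* and *Itga2b* rose. The part of platelet RNA in the fall of *Tgfb1* was not tested.

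*Tgfb2* (ENSMUSG00000039239, chromosome 1 from 186622792 to 186705989), which is best known from development, had FPKM of 0.724, 0.507 and 0.404 in control and 2.24, 1.43 and 1.53 in CITED2-deficient libraries. These values stand on 25, 16 and 14 fragments and on 104, 59 and 73 fragments. The lowest CITED2-deficient library was above the highest control library, and CITED2-deficient replicate 1 was the highest of all. The mean FPKM was 3.18 times the control mean, and the change was 0.82 (SE 0.16, adjusted p = 0.00289 in limma). Without CITED2-deficient replicate 1, *Tgfb2* dropped below the filter. With no filter and without that library, an alternative chosen after seeing the data, its change was 0.69 (adjusted p = 0.0204 in limma).

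*Tgfb3* (ENSMUSG00000021253, chromosome 12 from 86056745 to 86079041) had FPKM of 0.751, 0.564 and 0.484 in control and 2.26, 1.88 and 1.90 in CITED2-deficient libraries, on 31 to 48 and 144 to 194 fragments. The groups did not overlap. The mean FPKM was 3.36 times the control mean, and the change was 0.92 (SE 0.14, adjusted p = 0.000506 in limma). On recovered fragments, with no pseudocount of 1 FPKM, the limma-voom changes were larger, 1.76 for *Tgfb2* and 1.86 for *Tgfb3*. Even after the rise, both genes had a mean FPKM of at most 2.01, against 357 for *Tgfb1*. Antisense genes overlap both (*Gm29491* over *Tgfb2*, *Gm37804* and *Gm48008* over *Tgfb3*), and no source used here states whether the authors counted by strand, so their fragments cannot be told apart.

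*Tgfb2*, *Tgfb3* and the stromal marker sum were each highest in CITED2-deficient replicate 1. The part of stromal RNA in the rise of these ligands was not tested. In CITED2-deficient replicates 2 and 3 the stromal sum (172 and 173) was also above every control library (42.6 to 51.1), as were *Tgfb2* and *Tgfb3*. Without replicate 1 the change of *Tgfb3* was 0.86 (adjusted p = 0.00289 in limma).

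**Figure D2:**
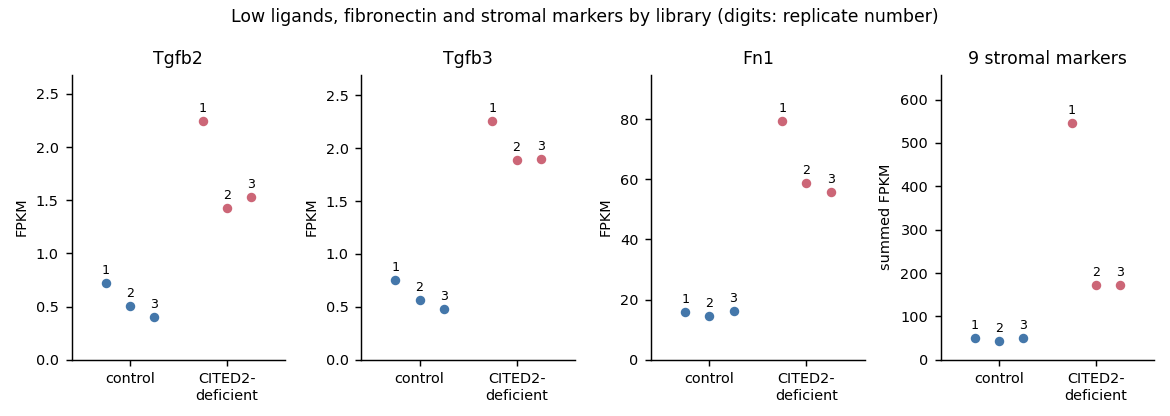
FPKM of *Tgfb2*, *Tgfb3* and the matrix gene *Fn1*, and the summed FPKM of 9 stromal markers (y axes, from 0), in each library; digits are replicate numbers. CITED2-deficient replicate 1 is the highest library in all 4 panels, with a stromal sum of 547 against 172 and 173, and replicates 2 and 3 are still above all controls.

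The receptors moved in opposite directions. *Tgfbr2* (ENSMUSG00000032440, chromosome 9 from 116084293 to 116175360), the ligand-binding type II receptor kinase, had FPKM of 90.8, 92.4 and 92.5 in control and 53.5, 57.8 and 55.2 in CITED2-deficient libraries. Control libraries lay within a narrow range, far above the CITED2-deficient ones. The mean went from 91.9 ± 0.937 to 55.5 ± 2.17 (SD, n = 3), a change of -0.72 (SE 0.04, adjusted p = 5.22e-07 in limma), which is the largest fall of the 10 genes.

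*Tgfbr1* (ENSMUSG00000007613, chromosome 4 from 47353222 to 47414931), the type I kinase that phosphorylates the SMADs, had FPKM of 69.5, 71.0 and 71.9 in control and 96.6, 89.5 and 86.9 in CITED2-deficient libraries. Every CITED2-deficient library was above every control library. *Tgfbr1* was highest in CITED2-deficient replicate 1, as the stromal marker sum was (547 against 172 and 173), and the part of stromal RNA was not tested. The mean went from 70.8 ± 1.23 to 91.0 ± 4.98 (SD, n = 3), a change of 0.36 (SE 0.04, adjusted p = 0.000132 in limma). After median-ratio scaling the changes were 0.46 for *Tgfbr1* and -0.62 for *Tgfbr2*.

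A ratio within a library does not depend on the scaling between libraries. The ratio of *Tgfbr1* to *Tgfbr2* FPKM was 0.765, 0.768 and 0.777 in control and 1.80, 1.55 and 1.57 in CITED2-deficient libraries. In control BMDMs *Tgfbr2* had the higher FPKM in all libraries, and in CITED2-deficient BMDMs *Tgfbr1* did. The log2 ratio differed by 1.09 (SE 0.07). An exact two-sided permutation test gave p = 0.1, which is the smallest p that 3 against 3 libraries allow, and 0.167 after adjustment over the 5 ratios compared, so it cannot pass 0.05. FPKM divide by the mean length of the annotated transcripts, so the level of 1 gene against another is less certain than the change of their ratio.

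The 250 bases before the transcript start of the 2 receptors and of *Tgfb2* are shown because the receptors moved apart and *Tgfb2* rose from a very low level. They are from RefSeq (GRCm38.p6, the mm10 assembly), 5′ to 3′ on the strand of the gene. Capitals mark CAGAC or its complement GTCTG, a box that holds the core bound by SMAD3 and SMAD4, searched on both strands.
*Tgfbr1*, chr4:47352972-47353221, plus strand: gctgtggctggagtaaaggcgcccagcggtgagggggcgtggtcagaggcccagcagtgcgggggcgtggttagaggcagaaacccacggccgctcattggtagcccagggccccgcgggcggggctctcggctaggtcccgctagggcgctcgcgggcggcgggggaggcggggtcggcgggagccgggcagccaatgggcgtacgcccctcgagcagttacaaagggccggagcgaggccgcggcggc
*Tgfbr2*, chr9:116175364-116175613, minus strand: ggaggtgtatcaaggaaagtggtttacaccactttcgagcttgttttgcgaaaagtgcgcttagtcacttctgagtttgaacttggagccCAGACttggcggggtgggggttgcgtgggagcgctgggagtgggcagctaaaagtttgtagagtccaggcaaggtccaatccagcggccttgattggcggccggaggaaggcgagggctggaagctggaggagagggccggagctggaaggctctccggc
*Tgfb2*, chr1:186705990-186706239, minus strand: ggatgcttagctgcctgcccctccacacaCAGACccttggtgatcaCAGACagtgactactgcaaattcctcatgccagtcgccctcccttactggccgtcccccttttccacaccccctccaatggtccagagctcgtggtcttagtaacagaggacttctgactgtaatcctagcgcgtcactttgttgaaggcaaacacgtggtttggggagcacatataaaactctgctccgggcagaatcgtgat

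The box occurred 0 times in the *Tgfbr1* window, 1 time in that of *Tgfbr2* and 2 times in that of *Tgfb2*. Of 32851 such windows in RefSeq, 42.2% held it at least 1 time and 11.5% at least 2 times. Promoter sequences were matched for 6 of the 10 genes. The box was absent from the *Tgfb1* and *Smad3* windows, occurred 2 times in the *Tgfbi* window and 1 time before a second start of *Tgfbr1*. The palindrome GTCTAGAC was in 0.167% of all windows and in none of these. Matches are short letter runs and were not tied to binding in these cells.

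The SMADs that carry the signal did not pass the test. *Smad2* and *Smad3*, which TGFBR1 phosphorylates, lay on chromosome 18 (76241580 to 76310963, ENSMUSG00000024563) and chromosome 9 (63646767 to 63757994, ENSMUSG00000032402). *Smad2* had FPKM of 32.5, 30.4 and 31.4 in control and 27.6, 30.3 and 29.6 in CITED2-deficient libraries. The groups were only just apart, and the change was -0.11 (95% interval -0.22 to 0.0055, adjusted p = 0.102 in limma), or -0.0059 after median-ratio scaling. *Smad3* had FPKM of 26.5, 28.9 and 23.7 in control and 27.3, 27.5 and 27.7 in CITED2-deficient libraries. The control libraries spanned the CITED2-deficient ones, and the change was 0.063 (95% interval -0.087 to 0.21, adjusted p = 0.455 in limma). With limma-voom on fragments, *Smad3* was higher by 0.17 (adjusted p = 0.0426).

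*Smad4* (ENSMUSG00000024515, chromosome 18 from 73639009 to 73703780), the partner shared by the activated SMADs, had FPKM of 55.9, 51.5 and 55.5 in control and 55.7, 54.9 and 56.0 in CITED2-deficient libraries. The groups overlapped, and the change was 0.033 (95% interval -0.059 to 0.13, adjusted p = 0.524 in limma). This verdict depended on the scaling, since after median-ratio scaling *Smad4* was higher by 0.14 (adjusted p = 0.0190 in limma), as it was by 0.14 with limma-voom (adjusted p = 0.0207).

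*Smad7* (ENSMUSG00000025880, chromosome 18 from 75367529 to 75395935), the inhibitory SMAD, had FPKM of 3.13, 2.92 and 2.86 in control and 4.61, 4.09 and 3.78 in CITED2-deficient libraries, on 82 to 96 and 150 to 190 fragments. All CITED2-deficient libraries were above all controls. *Smad7* was highest in CITED2-deficient replicate 1, as the stromal marker sum was (547 against 172 and 173), and the part of stromal RNA was not tested. The mean FPKM was 1.40 times the control mean, and the change was 0.38 (SE 0.10, adjusted p = 0.0109 in limma). Without CITED2-deficient replicate 1 it was 0.31 (adjusted p = 0.0437 in limma).

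Among the SMADs, the ratio of *Smad7* to *Smad3* FPKM was 0.118, 0.101 and 0.121 in control and 0.169, 0.149 and 0.136 in CITED2-deficient libraries. The groups did not overlap, and the log2 ratio differed by 0.42 (SE 0.12, exact permutation p = 0.1, adjusted 0.167). The ratios of *Smad2* to *Smad3* and of *Smad4* to *Smad3* overlapped between the groups, with log2 differences of -0.18 (SE 0.10, exact permutation p = 0.3) and -0.031 (SE 0.11, exact permutation p = 0.7).

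*Tgfbi* (ENSMUSG00000035493, chromosome 13 from 56609523 to 56639562), which encodes an adhesive matrix protein, had FPKM of 170, 170 and 168 in control and 124, 121 and 115 in CITED2-deficient libraries. The controls were almost equal, and all CITED2-deficient libraries lay well below them. The mean went from 169 ± 0.947 to 120 ± 4.32 (SD, n = 3), a change of -0.49 (SE 0.03, adjusted p = 2.97e-06 in limma) or -0.39 after median-ratio scaling. *Tgfbi* fell further than *Tgfb1*. Their ratio was 0.390, 0.378 and 0.388 in control and 0.348, 0.335 and 0.324 in CITED2-deficient libraries, a log2 difference of -0.20 (SE 0.03, exact permutation p = 0.1, adjusted 0.167).

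**Figure D3:**
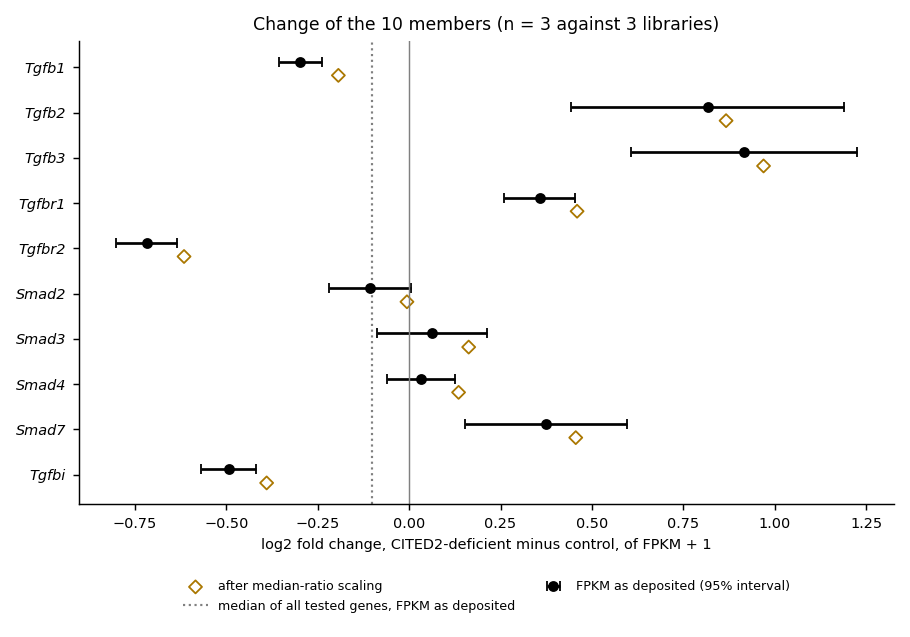
Change of each of the 10 genes on the log2(FPKM + 1) scale (x axis, CITED2-deficient minus control), with the limma 95% interval in black and the value after median-ratio scaling as open diamonds. The dotted line is the median of all genes tested (-0.10). The intervals of *Smad2*, *Smad3* and *Smad4* include 0, and *Tgfbr1* and *Tgfbr2* lie on opposite sides.

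**Figure D4:**
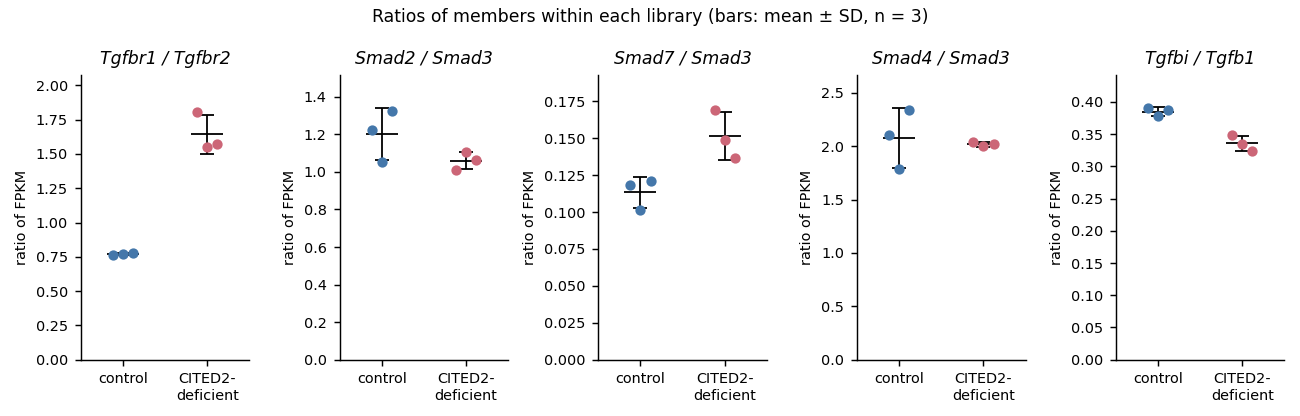
Ratios of FPKM within each library (y axes, from 0) for 5 pairs of genes; points are libraries and bars the mean ± SD of 3. The ratio of *Tgfbr1* to *Tgfbr2* goes from a mean of 0.770 to 1.64, and the ratios of *Smad2* and *Smad4* to *Smad3* overlap between the groups.

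In order of mean FPKM the control BMDMs had *Tgfb1* first, then *Tgfbi*, *Tgfbr2*, *Tgfbr1*, *Smad4*, *Smad2*, *Smad3*, *Smad7*, *Tgfb3* and *Tgfb2*. Only *Tgfb3* and *Tgfb2* overlapped as neighbors in the control libraries. In the CITED2-deficient libraries *Tgfbr1* stood ahead of *Tgfbr2*, and the neighbors *Tgfbr2* and *Smad4*, *Smad2* and *Smad3*, and *Tgfb3* and *Tgfb2* overlapped.

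Beyond the 10 genes, a list of 96 other genes of the pathway held 90 that were in the table and 71 that were tested. Of these 34 rose, 16 fell and 21 did not pass, and their median change was 0.14 against -0.10 for all genes. Over all genes tested 51.3% passed, 16.7% higher and 34.6% lower, and the counts for each role below stand beside these shares. The role lists share genes, so the same rise can be counted under several roles. The lists were written with earlier results of these data known, so an excess over these shares is not independent support. After median-ratio scaling or with limma-voom, 8 were lower in place of 16.

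Genes for latency and activation of the ligands rose in 6 of 10 tested cases, against 16.7% of all genes, and fell in 3, against 34.6%. *Fbn1*, 1 of the 6, passed the filter only through the CITED2-deficient libraries. Thrombospondin 1 (*Thbs1*), which can release the latent ligand, rose from a mean FPKM of 48.1 ± 5.53 to 114 ± 14.2 (change 1.23, SE 0.10, adjusted p = 8.92e-06 in limma). The latent-complex proteins *Ltbp1* (mean FPKM 1.56 to 3.87) and *Ltbp2* (5.53 to 11.4) and the surface tether *Lrrc32* (2.00 to 5.45) rose as well. *Ltbp3*, more abundant than *Ltbp1* and *Ltbp2*, fell slightly (16.6 to 14.9, adjusted p = 0.0438 in limma). Its call was lost with limma-voom (adjusted p = 0.576). The myeloid surface tether *Nrros* fell from 208 ± 5.97 to 144 ± 3.97 (change -0.53, SE 0.03, adjusted p = 2.06e-06), and so did *Furin*, the protease that cleaves the precursor, from 75.5 ± 1.41 to 44.9 ± 3.40 (change -0.74, SE 0.05, adjusted p = 4.94e-06). Of these genes *Nrros* had the highest mean FPKM. *Thbs1*, *Ltbp1*, *Ltbp2* and *Lrrc32* were each highest in CITED2-deficient replicate 1, where the stromal marker sum was 547 against 172 and 173 in replicates 2 and 3. In replicates 2 and 3 the stromal sum was also above every control library (42.6 to 51.1), as were *Thbs1*, *Ltbp1*, *Ltbp2* and *Lrrc32*. The part of stromal RNA in the rise of these genes was not tested.

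Of 9 other receptors and coreceptors tested, 2 rose and 7 did not pass, a smaller share of calls than the 51.3% over all genes. *Eng*, a coreceptor known from endothelium and activated macrophages, rose from 52.0 ± 1.95 to 85.7 ± 1.61 (change 0.71, SE 0.04, adjusted p = 6.58e-07 in limma). The endothelial marker sum was higher in the same libraries (27.4 to 32.5 against 5.98 to 6.22), and its part in the rise of *Eng* was not tested. The other rise was *Tgfbr3*, with an adjusted p of 0.0385 in limma. Of 3 other SMADs tested, *Smad6*, an inhibitory SMAD of the BMP branch, rose from 1.22 ± 0.444 to 1.98 ± 0.135 (change 0.45, SE 0.16, adjusted p = 0.0461 in limma), a call lost in 10 of 16 alternatives, and *Smad1*, the most abundant, changed by -0.12 (adjusted p = 0.211).

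Of 13 inhibitors and turnover genes tested 4 were higher, against 16.7% of all genes, 6 lower, against 34.6%, and 3 did not pass. *Pmepa1*, which sequesters receptor-regulated SMADs, rose from 1.02 ± 0.0785 to 3.36 ± 1.00 (change 1.08, SE 0.16, adjusted p = 0.000549 in limma). *Wwp1*, a ubiquitin ligase, fell from 159 ± 2.96 to 101 ± 2.89 (change -0.64, SE 0.03, adjusted p = 4.75e-07). *Fkbp1a*, which binds the type I receptor, fell from 158 ± 4.03 to 138 ± 5.52 (change -0.19, adjusted p = 0.00231), and its call was lost after median-ratio scaling and with limma-voom. Among 17 SMAD adaptors and partners 7 rose, against 16.7% of all genes, and 4 fell, against 34.6%. *Tgfb1i1* rose from 1.97 ± 0.755 to 5.42 ± 1.13 (change 1.13, adjusted p = 0.00140), *Junb* from 133 ± 4.01 to 174 ± 8.49 (change 0.38, adjusted p = 6.08e-05), and *Usp11*, a deubiquitinase, fell from 1.68 ± 0.342 to 0.665 ± 0.121 (change -0.68, adjusted p = 0.00480). *Usp11* passed the filter only through the control libraries, so its being tested is tied to its direction. *Pmepa1* and *Tgfb1i1* were highest in CITED2-deficient replicate 1, as the stromal marker sum was (547 against 172 and 173). The part of stromal RNA was not tested.

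Genes listed here as induced targets of TGF-β rose in 13 of 17 tested cases, against 16.7% higher among all genes. In this list 2 fell, against 34.6%. Of the 13, *Smad6*, *Pmepa1*, *Junb*, *Skil* and *Tgif1* also stand in other role lists and are counted there too. The call of *Smad6* was lost in 10 of 16 alternatives. *Id1*, *Id2* and *Id3* are also among the 13. Whether TGF-β induces each listed gene in these cells was not tested. *Fn1*, the matrix protein fibronectin, had FPKM of 16.0, 14.5 and 16.2 in control and 79.3, 58.9 and 55.8 in CITED2-deficient libraries. The groups were far apart, with a change of 1.97 (SE 0.12, adjusted p = 1.18e-06 in limma), or 1.82 without CITED2-deficient replicate 1. *Ctgf*, a secreted matrix-associated protein, rose from a mean FPKM of 11.5 ± 0.857 to 38.1 ± 7.47. *Fn1* and other matrix genes are also made by stromal cells, whose markers rose in the same libraries, and the part of that rise was not tested. *Hmox1*, the heme-degrading enzyme, was the most abundant of the list and fell from 569 ± 10.4 to 311 ± 3.52 (change -0.87, SE 0.03, adjusted p = 1.47e-08). *Mmp9* fell too (adjusted p = 0.0408 in limma), a call lost with limma-voom (adjusted p = 0.186), and *Cdkn2b* and *Cx3cr1* did not pass.

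In the list of other ligands of the family and their antagonists, 10 of the 17 genes measured were below the filter. Of 7 tested, 6 rose, against 16.7% of all genes, and 1 fell, against 34.6%. *Bmp1*, 1 of the 6 (mean FPKM 1.31 to 4.29), encodes a protease and is neither a ligand nor an antagonist. *Gdf3* rose from 25.3 ± 0.950 to 111 ± 4.53 (change 2.09, SE 0.04, adjusted p = 1.48e-09 in limma), and *Inhba*, the activin A subunit, from 1.04 ± 0.109 to 4.82 ± 0.861 (adjusted p = 1.49e-05). *Inhba*, *Fstl1*, *Grem1* and *Bmp1* were highest in CITED2-deficient replicate 1, as the stromal sum was (547 against 172 and 173). The part of stromal RNA was not tested. *Gdf3* was highest in replicate 3. The remaining riser, *Gdf15* (mean FPKM 7.93 to 12.2, adjusted p = 0.000414 in limma), was highest in replicate 2. The BMP ligand *Bmp2* fell from 20.7 ± 0.641 to 14.5 ± 1.04 (change -0.49, SE 0.06, adjusted p = 0.000171).

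**Figure D5:**
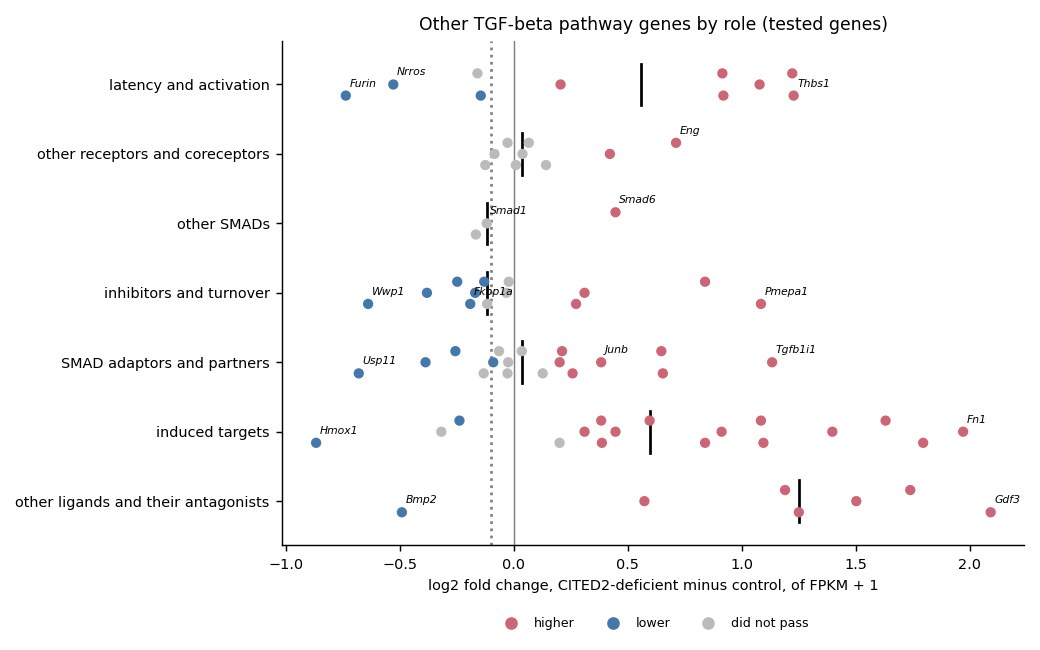
Change on the log2(FPKM + 1) scale (x axis, CITED2-deficient minus control) of each tested pathway gene by role; red points rose, blue fell, grey did not pass the test, bars are list medians, and the dotted line is the median of all genes tested. Induced targets and other ligands lie mostly to the right (13 of 17 and 6 of 7 higher), and inhibitors lie on both sides. Genes shared by lists are drawn in each. The list of other ligands and antagonists includes the protease gene *Bmp1*.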

How the data were processed

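RNAseq was made from BMDMs of 2 groups, control and CITED2-deficient, with 3 libraries each, grouped by the sample titles. According to the study's methods, ribosomal RNA was removed, stranded libraries were sequenced and reads were mapped to mm10 with STAR. The deposited values are FPKM, which the authors obtained per gene and library with Cuffdiff and the GENCODE annotation, without pooling replicates. The sources used here do not give tool versions, the annotation release or the strand setting.

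A linear model with a variance trend (limma 3.58.1, R 4.3.3) was fitted to log2(FPKM + 1) for the 11687 of 22248 genes whose mean FPKM reached 1. P-values were adjusted over all of them by the Benjamini-Hochberg method (threshold 0.05). Cuffdiff needs alignments and was not repeated. Multiplying FPKM by the average GENCODE vM21 transcript length gave fragments for 22239 matched genes, and for 96.1% of these every library came within 0.02 of a whole number, with 17289286 to 26100410 fragments per library. The precision of low genes is limited by these counts. Ratios of members were tested with an exact two-sided permutation test. Promoter sequences came from RefSeq (GRCm38.p6, the same assembly as mm10).

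The fit was tested on simulated data. Alternatives changed the pseudocount, filter, scaling, variance model, array weights, replicate block, libraries, fold threshold and test (limma-voom on the fragments). One alternative for *Tgfb2* was chosen after seeing the data.

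Members and gene lists were chosen with earlier results of these data known. The genes named are the 10 members, *Cited2* and, per list, the most abundant tested gene and the largest rise and fall past the threshold with groups that did not overlap. Others named were chosen after their values were seen.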

Additional observations from a re-analysis of the deposited data

How the results depend on the processing

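*Tgfb1*, *Tgfbr2* and *Tgfbi* kept their direction and call in each of the 16 alternatives that set no fold threshold, as did *Tgfbr1*. *Tgfb3* and *Smad7* did so wherever they were tested, and a mean FPKM of at least 5 left both untested, together with *Tgfb2*. Of the 10 genes 7 were called, against 51.3% of all genes tested. With that filter 4 of 7 tested were called, of which 1 was higher, against 57.2% of 8712 genes. With a fold change of at least 1.5 there were 3 calls, 2 higher and 1 lower, against 13.3% of all genes. Leaving out each library in turn gave 6 to 7 calls, against 44.8% to 46.7% of all genes. The lower number came without CITED2-deficient replicate 1, when *Tgfb2* was not tested. Over the same left-out libraries *Smad3* ranged from -0.0091 (without control replicate 3) to 0.13, *Smad4* from -0.0039 (without control replicate 2) to 0.054, none of them called, and the log2 difference of the *Smad4* to *Smad3* ratio from -0.14 to 0.060 (without control replicate 3), against -0.031 with all libraries. The cause of these reversals was not tested.

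Of the pathway genes, 50 were called, and 27 with a fold change of at least 1.5, of which 4 were lower. The 16 lower calls became 8 after median-ratio scaling and 8 with voom. Over all genes the lower calls were 2490 and 2617 under these settings, against 4044, and a fold change of at least 1.5 left 1549 calls, with 860 higher and 689 lower. Same-numbered libraries did not deviate together over the genes tested (correlations of 0.014, 0.0078 and 0.040). A lack of correlation over so many genes cannot exclude that the numbers pair the samples. With a replicate block 7 of the 10 genes and 5708 genes in all were called. Among the genes named by rule, the block removed the call of *Smad6* alone (adjusted p = 0.0565 in limma). Depth limits *Tgfb2* and *Tgfb3*, which rest on 14 to 48 fragments per control library.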
